A study of Mus musculus with 16 samples.

Results

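Fam221a, Hpgds, Patl2, Trpm1 and Adipoq are 5 of the 17097 mouse genes measured in this array series, and they are read by 6 of its 45141 probe sets. They were chosen from these same arrays because their signal was high in resting Tsc1-deficient T cells and dropped after stimulation, so the values behind that choice are given as a description, with no test. The series profiled sorted naive T cells of C57BL/6 mice on 16 single-colour Affymetrix arrays in 6 groups. They are Tsc1-deficient and wild-type CD4 cells stimulated for 4 h with plate-bound anti-CD3 and anti-CD28 (3 arrays each), Tsc1-deficient and wild-type unstimulated CD8 cells (2 arrays each), and Tsc1-deficient and wild-type unstimulated CD4 cells (3 arrays each). Stimulated cells were cultured in Click medium, and no stimulated CD8 cells were analysed here. The labels give neither the Tsc1 allele, nor the means and timing of its deletion, nor the age of the mice, and they do not tell whether replicate arrays stem from different mice. The p-values therefore rest on a spread between arrays that may be technical.

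Tsc1 encodes part of the TSC complex, which restrains mTORC1, a kinase complex that promotes growth, and the title of the series asks how it keeps naive T cells quiescent. Stimulation through CD3 and CD28 mimics the antigen receptor and costimulatory signals that take a naive T cell out of rest. The 5 genes belong to no single pathway. Hpgds encodes the hematopoietic prostaglandin D synthase, a glutathione-dependent enzyme known from mast cells and Th2 cells. Adipoq encodes adiponectin, a hormone of fat cells. Trpm1 encodes a cation channel known from melanocytes and from retinal bipolar cells, and in melanocytes it is a target of the transcription factor MITF. Patl2 encodes an RNA-binding protein of the Pat1 family, studied in oocytes. Fam221a encodes a protein that takes its name from a sequence family, and no role is stated for it here.

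The signals are log2 values, so a difference of 1 is a 2-fold change, and the median of the whole table is 3.36. Signals near or below that median may be mostly background, and a change that starts or ends there may be understated. Tsc1 itself was lower in deficient cells, by 0.83 ± 0.09 in unstimulated CD4 cells (limma adjusted p = 3.77e-05), by 1.06 ± 0.09 in stimulated CD4 cells (adjusted p = 4.63e-06) and by 0.55 ± 0.12 in CD8 cells (adjusted p = 0.00892), with ± the standard error of the fit throughout. The signal was reduced and not lost, and the sources used here do not say where its probes lie relative to the deleted part. All 9 measured T cell markers lay above the table median in all 6 groups. They include Cd4, Cd8a and Cd8b1, whose lowest signals on the 16 arrays were 3.95, 4.35 and 6.14. A signal above the median therefore does not tell the lineages apart. The 3' and 5' control probe sets of Gapdh differed by 0.96 on replicate 1 of the stimulated deficient CD4 cells and by 0.64 on replicate 2 of the deficient CD8 cells, against 0.02 to 0.40 on the other 14 arrays. Differences of the 5 genes without these 2 arrays are given where they move most. These are bulk samples, so more cells that express a gene and more of its RNA per cell cannot be told apart.

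In the RefSeq annotation of GRCm38.p6, Fam221a lies on chromosome 6 at 49366921 to 49389905, Hpgds on chromosome 6 at 65117293 to 65144981, Patl2 on chromosome 2 at 122120108 to 122186189, Trpm1 on chromosome 7 at 64153835 to 64269772, and Adipoq on chromosome 16 at 23146536 to 23157968. The promoters below are shown because the 5 genes shared a pattern of signal. They are the 250 bases before an annotated start, from RefSeq on GRCm38.p6, written 5′ to 3′ on the strand of the gene. Those of Fam221a, Hpgds and the second start of Trpm1 lie inside the gene coordinates above, so they precede internal starts. All 5 genes matched the promoter table, Trpm1 with 2 starts, which gave 6 windows. Capitals mark the M-box TCATGTG and the E-box CACGTG, motifs that MITF and its relatives are known to bind. The Fam221a promoter is shown as that of the gene with the largest resting CD4 difference of the 5, and it holds neither motif.

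Fam221a, chr6:49367489-49367738, plus strand: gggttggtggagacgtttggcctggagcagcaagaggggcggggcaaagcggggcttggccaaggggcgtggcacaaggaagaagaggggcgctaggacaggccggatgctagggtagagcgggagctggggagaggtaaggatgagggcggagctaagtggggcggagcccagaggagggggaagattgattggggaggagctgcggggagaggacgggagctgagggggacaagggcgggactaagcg

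Hpgds, chr6:65144731-65144980, minus strand: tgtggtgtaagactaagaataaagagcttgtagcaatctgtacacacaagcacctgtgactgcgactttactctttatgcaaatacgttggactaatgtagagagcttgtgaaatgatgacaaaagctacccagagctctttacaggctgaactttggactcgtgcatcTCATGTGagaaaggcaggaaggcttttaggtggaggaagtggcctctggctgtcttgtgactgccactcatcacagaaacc

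Trpm1 first start, chr7:64153585-64153834, plus strand: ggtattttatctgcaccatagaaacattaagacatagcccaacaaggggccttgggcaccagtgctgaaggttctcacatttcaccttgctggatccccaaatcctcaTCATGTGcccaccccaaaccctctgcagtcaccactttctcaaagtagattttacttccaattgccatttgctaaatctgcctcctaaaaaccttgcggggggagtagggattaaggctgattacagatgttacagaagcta

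Trpm1 second start, chr7:64185209-64185458, plus strand: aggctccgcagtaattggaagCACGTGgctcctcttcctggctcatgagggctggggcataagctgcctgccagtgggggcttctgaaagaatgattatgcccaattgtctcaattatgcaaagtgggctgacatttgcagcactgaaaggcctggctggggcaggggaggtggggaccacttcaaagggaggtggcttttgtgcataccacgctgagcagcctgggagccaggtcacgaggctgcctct

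The M-box lies at -81 to -75 in Hpgds and at -142 to -136 at the first start of Trpm1, and the E-box at -229 to -224 at the second start of Trpm1, counted from the transcript start. Both motifs were searched on both strands, together with the AP-1 site TGACTCA and the TATA box TATAAA, in windows of 300 bases that reach 50 bases past the start. The E-box was in 1 of the 6 windows, against 7.15% of all 32851 RefSeq windows, and the M-box in 2 of 6, against 3.77%. AP-1 and TATA letters were in 0 of 6, against 5.2% and 13.6%. Either an E-box or an M-box was in 3 of 6 windows, which belong to only 2 genes, against 10.7% of all windows. These matches are letters in a window and not evidence of binding. The promoters also differed in composition, with 66.4% G and C and 13 CpG pairs in Fam221a and 62.4% and 9 in Patl2. Adipoq had 48.8% and 0 CpG pairs, and Hpgds 45.2% and 3.

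Fam221a had the largest resting CD4 difference of the 5 genes. It read 8.43, 8.52 and 8.53 in unstimulated deficient CD4 cells, against 4.83, 4.85 and 4.72 in wild-type CD4 cells. The groups were far apart, and the difference of 3.69 ± 0.17 (12.9-fold) was the second of all 17097 genes, counted from the highest. After 4 h it read 5.71, 6.57 and 6.33 in deficient cells, against 4.91, 4.96 and 4.70 in wild-type cells. The stimulated deficient arrays stayed above both wild-type CD4 groups without overlap, with a difference of 1.35 ± 0.17 (2.55-fold), or 1.60 without replicate 1 of the stimulated deficient cells, the array with the Gapdh difference of 0.96. In CD8 cells it read 7.65 and 7.27 in deficient cells, against 3.98 and 4.05 in wild-type cells, a difference of 3.45 ± 0.20 (10.9-fold), or 3.64 without the deficient array with the Gapdh difference of 0.64. Its 6 groups ran from deficient CD4 at rest, through deficient CD8 and stimulated deficient CD4, to stimulated and resting wild-type CD4 and last wild-type CD8. The arrays of stimulated and resting wild-type CD4 cells overlapped, and no other neighbours in that order did.

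Hpgds, which turns prostaglandin H2 into prostaglandin D2, followed a similar course from a base below the table median. It read 5.95, 6.20 and 6.11 in unstimulated deficient CD4 cells, against 2.97, 3.29 and 2.98 in wild-type CD4 cells. All wild-type values lie below the table median, and the difference was 3.01 ± 0.18 (8.04-fold). After 4 h it read 3.08, 3.32 and 3.14 in deficient cells, against 2.61, 2.53 and 2.32 in wild-type cells, so that both stimulated groups were below the median and still did not overlap. In CD8 cells it read 5.53 and 4.52 in deficient cells, against 2.84 and 2.80 in wild-type cells. The 2 deficient CD8 arrays were a whole log2 unit apart, and the lower one is the array with the Gapdh difference of 0.64. Their part in the CD8 difference of 2.21 ± 0.22 was not tested, and without that array it was 2.71. Stimulated deficient and resting wild-type CD4 arrays overlapped in the order of the groups, and the other neighbours did not.

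Patl2, whose relative Patl1 acts in mRNA decay, was raised in both lineages of deficient cells. It read 6.08, 6.01 and 6.11 in unstimulated deficient CD4 cells, against 3.59, 3.64 and 3.75 in wild-type CD4 cells, a difference of 2.40 ± 0.21 (5.29-fold). After 4 h it averaged 4.03 ± 0.03 in deficient cells and 3.77 ± 0.12 in wild-type cells (SD, n = 3 each). These groups were separated by only 0.09. In CD8 cells it read 7.24 and 5.91 in deficient cells, against 3.97 and 3.86 in wild-type cells. Again the lower deficient array is the one with the Gapdh difference of 0.64, and the CD8 difference of 2.66 ± 0.26 was 3.33 without it, its part not having been tested. Deficient CD8 and resting deficient CD4 arrays overlapped, so these groups have no settled order. Stimulated deficient CD4 cells came next, and the 3 wild-type groups overlapped as neighbours at the low end.

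Trpm1 differed from the other 4 genes in that wild-type CD8 cells also had a high signal. Its brighter probe set read 6.32, 6.19 and 6.22 in unstimulated deficient CD4 cells, against 3.68, 3.87 and 4.00 in wild-type CD4 cells, a difference of 2.39 ± 0.16 (5.25-fold). In CD8 cells it read 9.36 and 9.15 in deficient cells, against 6.03 and 6.26 in wild-type cells, a difference of 3.11 ± 0.19 (8.63-fold), or 3.22 without the deficient array with the Gapdh difference of 0.64. The mean of 6.24 in resting deficient CD4 cells was close to the 6.14 of wild-type CD8 cells, with overlapping arrays, so a high Trpm1 signal was not limited to deficient cells. After 4 h it read 3.57, 3.62 and 3.80 in deficient CD4 cells, against 3.21, 3.67 and 2.87 in wild-type CD4 cells, and these groups overlapped. The dimmer probe set averaged 5.02 ± 0.31 in deficient CD8 cells and 3.44 ± 0.19 in wild-type CD8 cells (SD, n = 2 each). In resting CD4 cells it averaged 3.18 ± 0.16 in deficient and 2.76 ± 0.15 in wild-type cells (SD, n = 3 each), both below the table median. The probe sets therefore had the same direction and unlike sizes, with CD4 differences of 2.39 and 0.41 and CD8 differences of 3.11 and 1.58.

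Adipoq was above the table median in a single group. It read 4.94, 4.27 and 4.94 in unstimulated deficient CD4 cells, against 2.38, 2.62 and 2.31 in wild-type CD4 cells, a difference of 2.28 ± 0.16 (4.87-fold). After 4 h it read 2.36, 2.69 and 2.45 in deficient cells, against 2.40, 2.45 and 2.23 in wild-type cells, and the groups overlapped, with a difference of 0.14 ± 0.16, or 0.21 without replicate 1 of the stimulated deficient cells. In CD8 cells it read 2.64 and 2.37 in deficient cells, against 2.11 and 2.13 in wild-type cells. All of these stimulated and CD8 values are low enough that their order carries little weight, and the CD8 difference of 0.38 ± 0.19 (0.52 without the deficient array with the Gapdh difference of 0.64) ranked 1350 among all genes, where the other 4 members ranked between 2 and 17.

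**Figure D1:**
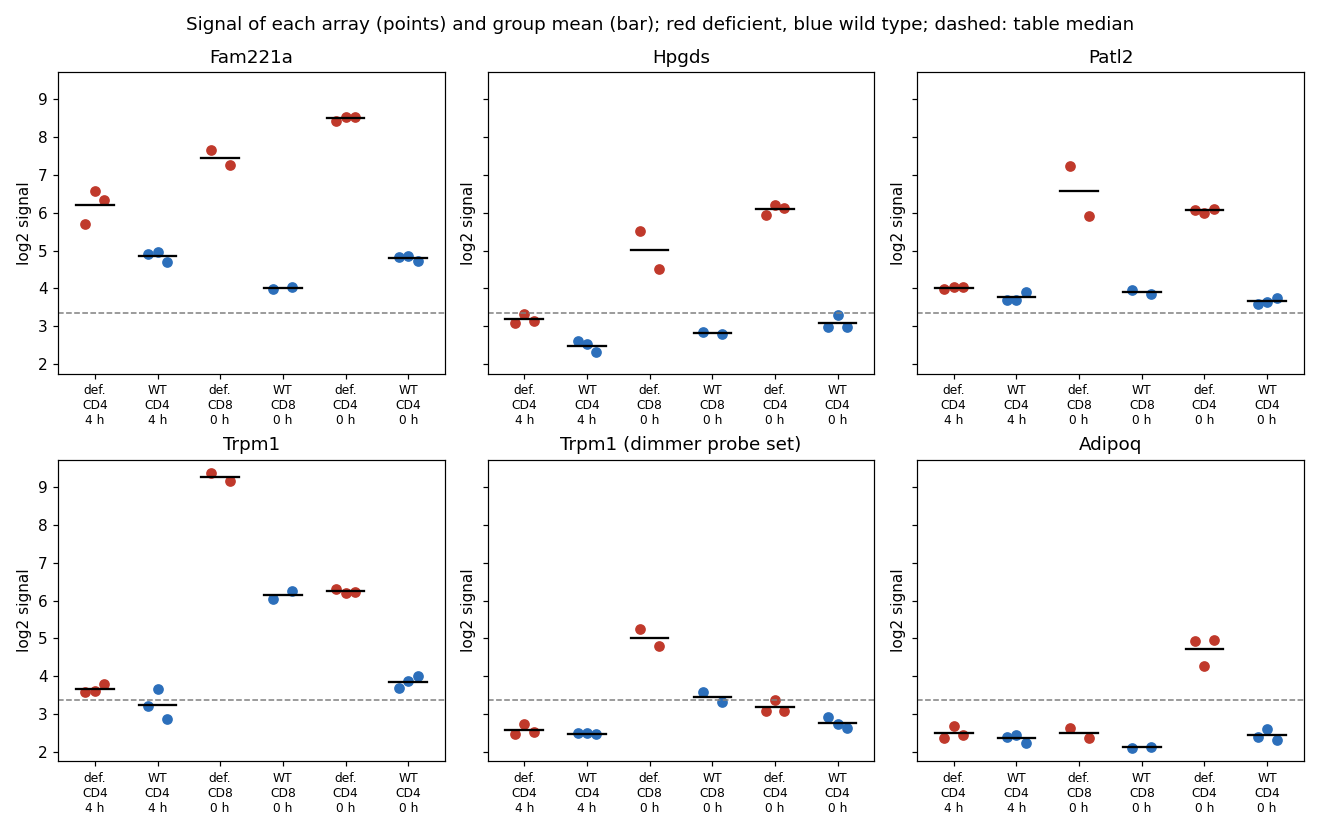
Log2 signal (vertical axis) of each array (points) with the group mean (bar) for the 6 probe sets, in deficient (red) and wild-type (blue) groups along the horizontal axis, with the table median of 3.36 dashed. Resting deficient CD4 arrays stand above resting wild-type CD4 arrays in every panel, Trpm1 is also high in wild-type CD8 cells, and Adipoq is high in resting deficient CD4 cells alone.

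In resting CD4 cells, deficient arrays lay above wild-type arrays without overlap for 5 of 5 genes, and 16.5% of all genes did so. In CD8 cells it was 5 of 5, against 22.9% of all genes. In stimulated CD4 cells it was 3 of 5 (Fam221a, Hpgds and Patl2), against 12.7%. The first and second counts follow from how the genes were chosen. The count at 4 h and the percentages below are not independent of that choice, which spoke of resting cells. As a percentage of the resting log2 difference in CD4 cells, the difference at 4 h was 36.5% for Fam221a, 23.1% for Hpgds, 17.3% for Trpm1, 10.7% for Patl2 and 6.12% for Adipoq. Without replicate 1 of the stimulated deficient cells these were 43.2% for Fam221a, 24.7% for Hpgds, 19.2% for Trpm1, 11.3% for Patl2 and 9.26% for Adipoq. Both 4 h groups of Hpgds and Adipoq averaged below the table median, so these percentages do not rank how much each gene kept. The CD8 difference as a percentage of the resting CD4 difference was 130% for Trpm1, 111% for Patl2, 93.3% for Fam221a, 73.4% for Hpgds and 16.7% for Adipoq. The CD8 minus the CD4 genotype difference was 0.72 ± 0.25 for Trpm1, 0.26 ± 0.33 for Patl2 and -0.25 ± 0.26 for Fam221a. It was -0.80 ± 0.29 for Hpgds and -1.90 ± 0.25 for Adipoq. The 5 genes were not tested in this comparison, where 0.117% of all genes were called.

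Stimulation lowered the signal of all 5 genes in deficient CD4 cells, as the choice of the genes required. The changes on the log2 scale were -2.91 ± 0.18 for Hpgds, -2.58 ± 0.16 for Trpm1, -2.29 ± 0.17 for Fam221a, -2.22 ± 0.16 for Adipoq and -2.04 ± 0.21 for Patl2. For 5 of 5 every stimulated deficient array was below every resting one, against 25.7% of all genes. Replicate 1, the stimulated array with the Gapdh difference of 0.96, was the lowest of the 3 stimulated deficient arrays for each gene. Its part was not tested; without it the changes ranged from -2.86 for Hpgds to -2.02 for Patl2.

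The choice of the genes named a drop after stimulation, read here as one in deficient cells. The change of wild-type CD4 cells on stimulation was tested over all 17097 genes with limma and Benjamini-Hochberg adjustment. A small wild-type change may, however, have been part of the choice, and the resting wild-type arrays were its baseline. This test and the next are therefore not independent of the choice. Their p-values for the 5 genes describe these arrays and are no support for the pattern. Of the 5 genes, 2 fell, while 19.1% of all genes fell and 31.9% changed in either direction. The arrays of these 2 genes did not overlap, as held downward for 25.4% of all genes. Trpm1 fell by 0.60 ± 0.16 (limma adjusted p = 0.00619) to a mean of 3.25 in stimulated wild-type cells, against 3.85 in resting ones, and all 3 stimulated arrays were lower, the nearest by 0.01. Its dimmer probe set changed by -0.28 ± 0.13 and did not pass (adjusted p over all probe sets = 0.145). Hpgds fell by 0.60 ± 0.18 (limma adjusted p = 0.0178) to 2.49 in stimulated wild-type cells, against 3.08 in resting ones, with all 3 stimulated arrays lower. Its call was lost without replicate 2 of the resting (adjusted p = 0.0888) or replicate 3 of the stimulated wild-type arrays (adjusted p = 0.0803). Most of these signals lie near or below the table median. Fam221a changed by 0.05 ± 0.17 (limma adjusted p = 0.865), Patl2 by 0.11 ± 0.21 (adjusted p = 0.782) and Adipoq by -0.08 ± 0.16 (adjusted p = 0.791), none of which passed the test.

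**Figure D2:**
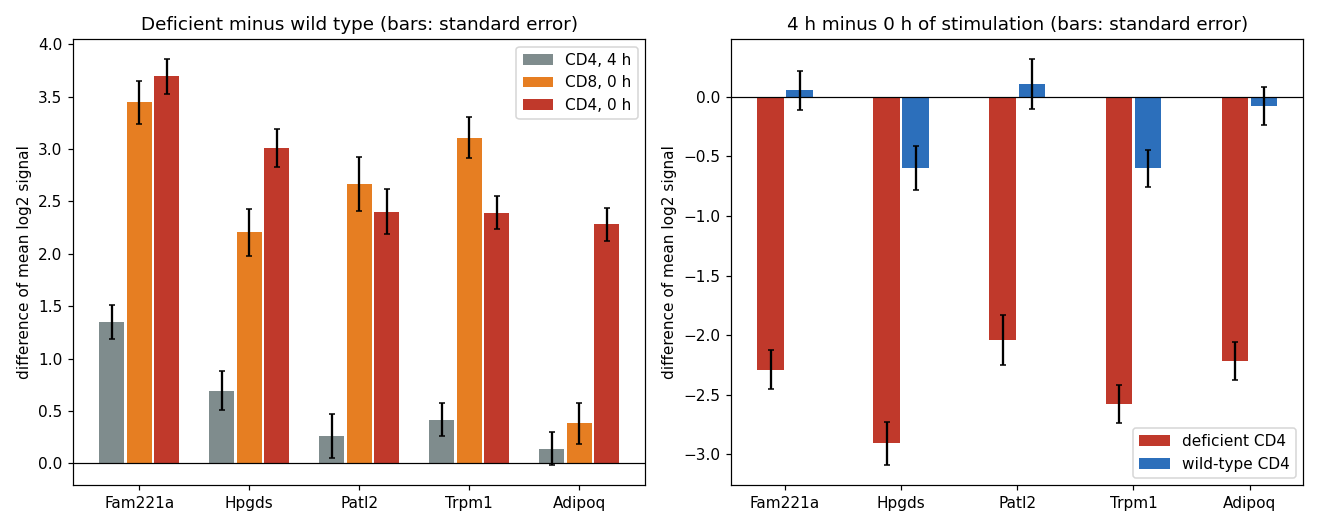
Differences of mean log2 signal (vertical axes, error bars the standard error) for the 5 genes, with deficient minus wild-type cells on the left and 4 h minus 0 h of stimulation on the right. In deficient CD4 cells all 5 bars fall by 2.04 to 2.91, and in wild-type CD4 cells the values lie between -0.60 and 0.11.

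The lineages were compared in wild-type resting cells, whose arrays were the baseline for the choice of the genes. The p-values and counts given here for the 5 genes are therefore a description. Trpm1 was 2.29 ± 0.18 higher in CD8 than in CD4 cells (4.90-fold, limma adjusted p = 1.67e-07), in both CD8 arrays. Its dimmer probe set was 0.68 ± 0.15 higher (adjusted p over all probe sets = 0.0164). Fam221a was lower in CD8 cells, by 0.79 ± 0.18 (limma adjusted p = 0.018), but that call was lost without either CD8 array or without replicate 1 or 2 of the CD4 arrays (adjusted p between 0.0554 and 0.156). Thus 1 of the 5 was called higher and 1 lower, against 2.47% and 2.57% of all genes, or 5.04% in either direction. Hpgds differed by -0.26 ± 0.20 (adjusted p = 0.631), Adipoq by -0.32 ± 0.18 (adjusted p = 0.437) and Patl2 by 0.25 ± 0.24 (adjusted p = 0.707). In deficient cells the same difference, given as a description, was 3.01 for Trpm1, 0.51 for Patl2, -1.03 for Fam221a, -1.06 for Hpgds and -2.22 for Adipoq.

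Across all genes, 147 had a resting CD4 difference of at least 1 and 1308 fell by at least 1 on stimulation of deficient cells. Both held for 63 genes, the 5 among them, and in 27 of the 63 the wild-type cells fell by less than 1. Of the 63 genes, 38 also had a CD8 difference of at least 1, including 4 of the 5 and not Adipoq. Ordered by the stimulation response in deficient minus that in wild-type cells, Fam221a (-2.34), Hpgds (-2.31), Patl2 (-2.15) and Adipoq (-2.14) held the 4 lowest places, in a comparison where 1.2% of all genes were called. The gene 4933430I17Rik followed with -2.09, then Trpm1 with -1.98 and Ccr9, a chemokine receptor of T cells, with -1.91. The values thus continue into genes outside the group of 5 without a gap. The low places of the 5 follow largely from how they were chosen.

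**Figure D3:**
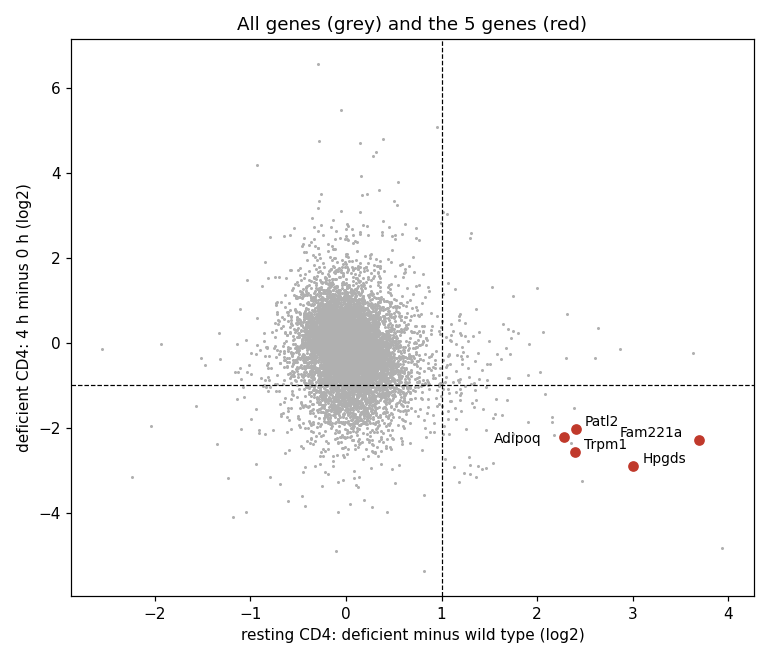
Difference of deficient minus wild-type resting CD4 cells (horizontal axis, log2) against the change of deficient CD4 cells over 4 h of stimulation (vertical axis, log2) for all genes (grey) and the 5 genes (red), with lines at 1 and -1. The 5 genes lie at 2.28 to 3.69 across and at -2.91 to -2.04 down, in the sparse lower right of the plot.

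The genes with the most similar signal across the arrays were found by Pearson r over all 16 arrays, among 3537 genes whose group means span at least 1 and rise above the table median. The arrays share groups and normalization, so r is a description. For Fam221a they were Rec8, a meiotic cohesin subunit (r = 0.969), Cyp51, an enzyme of cholesterol synthesis (0.957), and Wdr12, a ribosome biogenesis factor (0.943). For Hpgds they were Ccdc126 (0.974), Aldh1l1, an enzyme of folate metabolism (0.963), and 4933430I17Rik (0.959). Patl2 was most like Pgpep1l (0.970), Smpdl3b (0.967) and Cdc25b, a phosphatase that drives cell division (0.951). Trpm1 was most like Fam71b (0.965), Themis2 (0.957) and Uqcr11, a subunit of respiratory complex III (0.955). Adipoq was most like Padi1, a peptidylarginine deiminase (0.937), Catsperd, a subunit of the sperm calcium channel (0.898), and Tmprss13, a transmembrane protease (0.893). No gene recurs among the 3 nearest of the 5. Between the 5 genes themselves r ran from 0.91 to 0.98 over the 12 CD4 arrays and from 0.27 to 0.93 over all 16, the lowest for Trpm1 with Adipoq. The 5 were chosen for a shared course over the CD4 arrays, so the high r there follows largely from that choice.

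**Figure D4:**
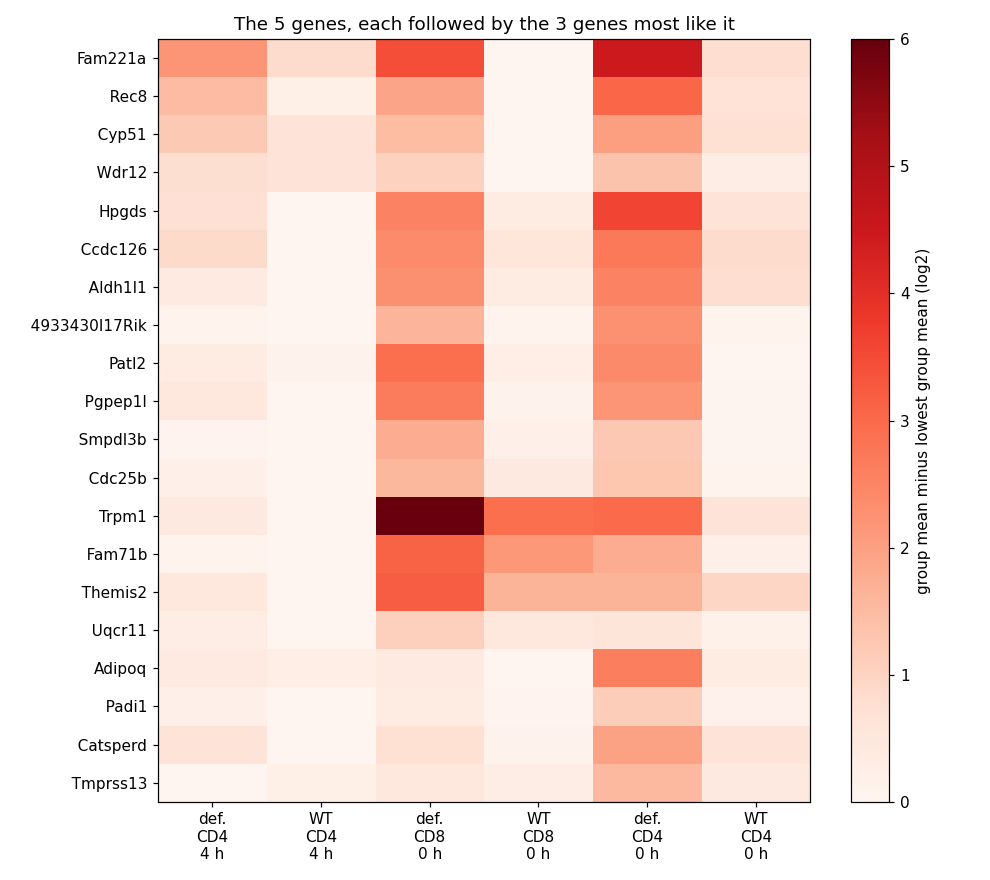
Group means of the 5 genes, each followed by the 3 genes most like it (rows), in the 6 groups (columns), coloured by log2 distance from the lowest group mean of the row. Genes most like Trpm1 are also raised in wild-type CD8 cells, and those most like Fam221a, Hpgds or Adipoq are highest in resting deficient CD4 cells.

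Other genes of the pathways were then read beside the 5, with tests over all genes. Of 23 measured prostaglandin and leukotriene genes other than Hpgds, 2 were higher and 1 lower in resting deficient CD4 cells, with a median difference of 0.08 against 0.01 for all genes, of which 3.96% were called higher and 1.87% lower. Ptger2, a receptor for prostaglandin E2, averaged 5.99 ± 0.11 in deficient and 3.67 ± 0.33 in wild-type cells (SD, n = 3 each), 2.32 ± 0.21 higher (limma adjusted p = 3.36e-06). Alox5ap, which helps 5-lipoxygenase make leukotrienes, was higher by 1.09 ± 0.17 (adjusted p = 0.000603), and Ptger4, another prostaglandin E2 receptor, was lower by 0.42 ± 0.09 (adjusted p = 0.011); both complete that count and were named after their values were seen. Unlike Hpgds, Ptger2 did not fall on stimulation. It averaged 6.67 ± 0.41 in stimulated deficient cells and 4.53 ± 0.36 in stimulated wild-type cells (SD, n = 3 each), 2.14 ± 0.21 higher (limma adjusted p = 1.01e-05), and was the 1 gene of the list called there, where 5.59% of all genes were higher and 3.86% lower. Stimulation raised it by 0.68 in deficient cells (limma adjusted p = 0.0162) and by 0.86 in wild-type cells (adjusted p = 0.00366), and the deficient call was lost without replicate 1 or 2 of the stimulated (adjusted p = 0.0809 and 0.0721) or replicate 2 of the resting deficient arrays (0.0621). In CD8 cells Ptger2 was 1.43 ± 0.26 higher in deficient cells (limma adjusted p = 0.00315), and 2 genes of the list were higher and 1 lower, against 3.64% and 2.18% of all genes.

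Tbxa2r, the thromboxane receptor, and Hpgd, which inactivates prostaglandins, fell on stimulation in both genotypes. Tbxa2r fell by 1.73 in deficient cells (limma adjusted p = 4.34e-09) and by 1.35 in wild-type cells (adjusted p = 1.03e-07). Hpgd fell by 1.55 in deficient cells (adjusted p = 0.000122) and by 1.25 in wild-type cells (adjusted p = 0.00104). On stimulation 2 genes of the list rose and 6 fell in deficient cells, and 2 rose and 7 fell in wild-type cells. Of all genes, 13.8% rose and 21.5% fell in deficient cells, and 12.8% rose and 19.1% fell in wild-type cells.

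Hpgds is by sequence a glutathione transferase. Of 18 other measured genes of that kind, 4 were higher and 0 lower in resting deficient CD4 cells, against 3.96% and 1.87% of all genes. The median difference was 0.18 against 0.01 for all genes. At an unadjusted p under 0.05 the counts were 8 and 1, with no share of all genes counted there. The 4 called were Gstt2, Gstp1, Gsta4 and Mgst1, with Gsta4 and Mgst1 named after their values were seen. Mgst1 was higher by 1.10 at rest and changed by -1.38 on stimulation of deficient cells. Gstt2 averaged 8.07 ± 0.05 in deficient and 6.77 ± 0.15 in wild-type cells (SD, n = 3 each), 1.30 ± 0.13 higher (limma adjusted p = 9.95e-06). It remained 0.96 ± 0.13 higher at 4 h (adjusted p = 0.000177), and Gstp1 was 0.39 ± 0.09 higher at rest (adjusted p = 0.0118). The Gstp1 call was lost without replicate 1 of the resting deficient (adjusted p = 0.0736) or replicate 3 of the resting wild-type arrays (0.051). In CD8 cells Gstt2 was 0.78 ± 0.16 higher (limma adjusted p = 0.00817) and Gstcd differed by -0.65 ± 0.13 (adjusted p = 0.00513), Gstcd being named after its value was seen. These were the 1 gene higher and the 1 lower of the list there, against 3.64% and 2.18% of all genes. On stimulation 8 of 18 fell in deficient and 9 of 18 in wild-type cells, and 0 rose in either, also at an unadjusted p under 0.05. Of all genes, 21.5% fell and 13.8% rose in deficient cells, and 19.1% fell and 12.8% rose in wild-type cells. Gstt2 fell by 2.87 in deficient and 2.53 in wild-type cells, and Mgst2 by 2.95 in deficient and 2.79 in wild-type cells, with limma adjusted p at or below 2.36e-10 for each.

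Few genes around adiponectin were called between genotypes. Of 15 measured genes of adiponectin receptors, secretion and AMP-activated kinase, limma called 0 higher and 1 lower in resting deficient CD4 cells, with 2 and 1 at an unadjusted p under 0.05. That gene, Prkab2, a regulatory subunit of the kinase, was lower by 0.54 ± 0.11 at rest (limma adjusted p = 0.00722) and higher by 0.39 ± 0.11 at 4 h (adjusted p = 0.0354). The call at 4 h was lost under 9 alternatives, 4 of which leave out 1 array (adjusted p between 0.0565 and 0.121). Adipor2, an adiponectin receptor, averaged 8.78 ± 0.16 in resting deficient and 8.69 ± 0.07 in resting wild-type CD4 cells (SD, n = 3 each). At 4 h it was 0.53 ± 0.11 higher in deficient cells (limma adjusted p = 0.00437). Adipor2 and Prkab2 were the 2 genes of the list called higher at 4 h, and 0 were lower. Of all genes, 3.96% were called higher and 1.87% lower at rest, and 5.59% and 3.86% at 4 h.

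Of 22 measured mRNA decay genes around Patl2, 0 passed the limma test at rest in CD4 or in CD8 cells, with 4 and 3 at an unadjusted p under 0.05. At 4 h 0 were higher and 3 lower in deficient cells (0 and 8 unadjusted), against 5.59% and 3.86% of all genes called. Dcp1b, a decapping cofactor, differed by -0.59 ± 0.12 (limma adjusted p = 0.00353), and Lsm4, part of an RNA-binding ring that aids decapping, by -0.41 ± 0.08 (adjusted p = 0.00363). The third was Pan2, a deadenylase subunit, with -0.29 ± 0.09 (adjusted p = 0.0429), named after its value was seen. Dcp2, the decapping enzyme, rose on stimulation, by 1.19 in deficient cells (limma adjusted p = 6.15e-07) and by 1.03 in wild-type cells (adjusted p = 4.15e-06). Of the 7 other TRPM channel genes, 0 passed the limma test between genotypes in resting CD4, stimulated CD4 or CD8 cells, with 3, 1 and 3 lower at an unadjusted p under 0.05. Trpm7, a channel with a kinase domain, rose on stimulation by 0.65 in deficient cells (limma adjusted p = 0.0011) and by 0.60 in wild-type cells (adjusted p = 0.00259).

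Of the 4 genes for MITF and its relatives, 0 passed the limma test between genotypes in resting CD4, stimulated CD4 or CD8 cells, with 0, 1 and 0 at an unadjusted p under 0.05. Tfe3, which mTORC1 is known to hold in the cytoplasm, ran from 6.62 to 6.67 in resting deficient and from 6.46 to 6.55 in resting wild-type CD4 cells. Stimulation raised it by 1.03 in deficient cells (limma adjusted p = 6.09e-08) and by 1.32 in wild-type cells (adjusted p = 4.4e-09). Transcript levels of these factors do not show where their proteins are.

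Markers of the cells that usually express the members were read on the same arrays. Of 10 adipocyte and 10 melanocyte markers, limma called 0 between genotypes in resting CD4 or CD8 cells, with 1 adipocyte and 2 melanocyte markers higher in CD4 cells, and 1 adipocyte marker higher and 2 melanocyte markers lower in CD8 cells, at an unadjusted p under 0.05. The array means of the adipocyte list ran from 2.83 to 2.92 in resting deficient CD4 cells and from 2.77 to 2.87 in wild-type ones. Those of the melanocyte list ran from 2.79 to 2.87 in deficient and from 2.80 to 2.81 in wild-type cells. Lep and Fabp4, which mark fat cells, and Tyr, Tyrp1, Dct and Mlana, which mark melanocytes, were below the table median on all 16 arrays. Of the 10 adipocyte markers 6 were below it on all arrays, Plin4 was above it on 5 arrays and Lpl on 2, and Retn and Lipe were above it on all 16. Of the 10 melanocyte markers 8 were below it on all arrays, and Pmel and Sox10 were above it on all 16. Of 11 mast cell or basophil markers, 0 were called at rest (2 unadjusted in CD4 cells), and 9, Cpa3, Mcpt4, Ms4a2 and Fcer1a among them, were below the median on all 16 arrays. Kit was above it on 1 array and Hdc on all 16. Of 10 Th2 or memory T cell markers, 1 was higher in resting deficient CD4 cells, against 3.96% of all genes. It was the transcription factor Maf, higher by 0.53 ± 0.15 (limma adjusted p = 0.0484). Maf was below the table median on all 16 arrays, and its call was not tried under the alternatives. Of 7 platelet markers 0 were higher in resting deficient CD4 cells, also unadjusted. The array means of the Th2 or memory list did not overlap between genotypes. They ran from 3.20 to 3.23 in deficient and from 3.08 to 3.12 in wild-type resting CD4 cells, from 3.30 to 3.49 and from 3.07 to 3.13 in deficient and wild-type stimulated cells, and from 3.08 to 3.13 and from 2.94 to 3.02 in deficient and wild-type CD8 cells.

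Neutrophil markers did move with genotype. The mean of the 10 measured neutrophil genes ran from 4.14 to 5.71 over resting deficient CD4 arrays and from 3.26 to 4.02 over wild-type ones. In stimulated CD4 cells it ran from 4.22 to 5.49 in deficient and from 3.16 to 3.53 in wild-type cells, and in CD8 cells from 4.32 to 5.13 in deficient and from 3.35 to 4.18 in wild-type cells. In resting CD4 cells 1 of the 10, Ngp, a neutrophil granule protein, was called, 2.64 ± 0.67 higher in deficient cells (limma adjusted p = 0.0277), and this call was lost under 3 alternatives that keep every array in the comparison and without each of 3 single arrays (adjusted p between 0.0541 and 0.15). At 4 h 4 of 10 were higher in deficient cells, and in CD8 cells 0 of 10 were called. Of all genes, 3.96% were called higher at rest in CD4 cells, 5.59% at 4 h and 3.64% in CD8 cells. At an unadjusted p under 0.05, 6 neutrophil genes were higher in resting CD4, 5 in stimulated CD4 and 4 in CD8 cells, and 0 were lower. On stimulation 0 of 10 neutrophil genes passed limma in either genotype, also at an unadjusted p under 0.05. The array highest for the list, replicate 3 of the resting deficient CD4 cells, had Fam221a at 8.53, Hpgds at 6.11, Patl2 at 6.11, Trpm1 at 6.22 and Adipoq at 4.94. Among the resting deficient CD4 arrays it was the highest for Fam221a, Patl2 and Adipoq, and not for Hpgds or Trpm1. Of 8 NK cell markers, 2 were higher and 1 lower in resting deficient CD4 cells, against 3.96% and 1.87% of all genes. The array means of this list ran from 5.38 to 5.50 in deficient and from 4.86 to 5.01 in wild-type cells. In CD8 cells these means overlapped, at 5.77 to 6.08 in deficient and 5.67 to 5.92 in wild-type cells. Klrd1, an NK cell receptor subunit, was 1.42 ± 0.11 higher in resting deficient CD4 cells (limma adjusted p = 5.52e-07) and changed on stimulation by -2.97 in deficient cells (limma adjusted p = 4.62e-12) and by -1.73 in wild-type cells (adjusted p = 2.01e-09). Of 9 T cell markers 8 fell on stimulation in each genotype, against 21.5% of all genes in deficient and 19.1% in wild-type cells. The median changes of this list were -1.19 in deficient and -1.37 in wild-type cells. Cd8a, named after its value was seen, differed by -0.84 ± 0.21 in resting deficient CD4 cells (limma adjusted p = 0.0268). The part of cells with these markers in the values of the 5 genes was not tested.

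**Figure D5:**
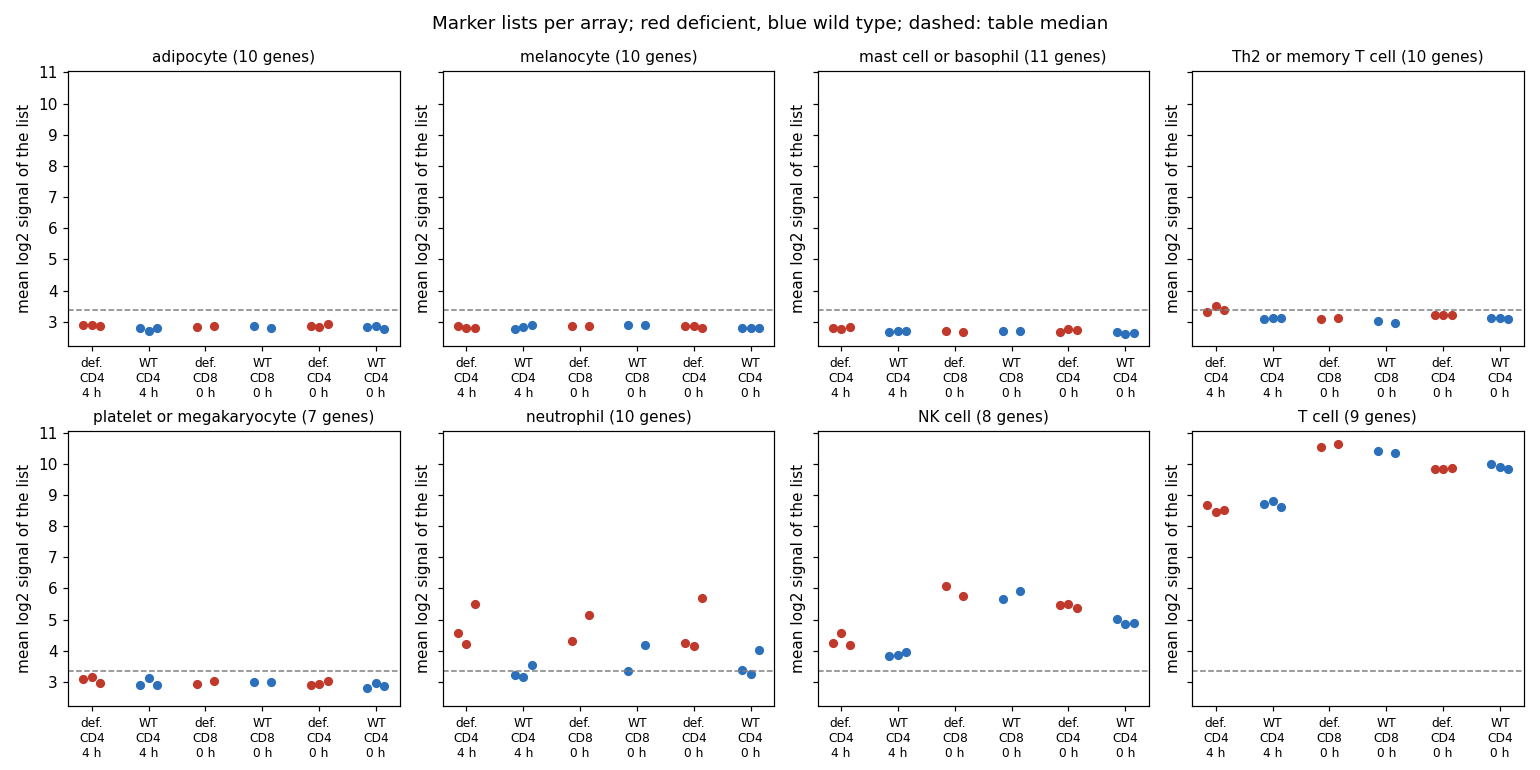
Mean log2 signal of 8 marker lists (vertical axes) on each array (points) of the deficient (red) and wild-type (blue) groups, with the table median of 3.36 dashed. Adipocyte, melanocyte and mast cell lists stay below the median on all arrays, the neutrophil list is higher in deficient cells, and T cell markers lie above the median on all arrays and are lower after stimulation.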

How the data were processed

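Per the submitters' processing notes, the authors made the deposited log2 values with RMA in Partek 6.5, and these values were used as deposited. Sources used here give no genome build for the arrays. One sentence of the labels' treatment text names HIF1a-deficient mice, but genotype entries and titles name only Tsc1-deficient or wild-type cells, and these were followed. Of 45141 probe sets, 28898 name 1 gene, and the brightest per gene was kept (17097 genes). Group means of all 16 arrays were fitted together in limma 3.58.1 (R 4.3.3), with Benjamini-Hochberg adjustment over all genes and a threshold of 0.05. The fit was tested on simulated data. Figures used matplotlib 3.10.9 in Python 3.11.15. The 5 genes, the lists and the tests were chosen with earlier results of these data known. Up to 4 called genes per list, by absolute change, and the 3 genes most like each member could be named. Alternatives were other probe set summaries, normalizations, priors, weights, filters and samples. The number of arrays limits the precision.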

Additional observations from a re-analysis of the deposited data

Results flagged for a closer look

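Genes of the lists were flagged where their stimulation response, or their genotype difference, differed between groups by an interaction term of the limma fit. The response in deficient minus that in wild-type CD4 cells was 0.93 ± 0.16 for Prkab2 (limma adjusted p = 0.00721), 1.60 ± 0.26 for the cytokine gene Il4 (adjusted p = 0.00584) and 0.88 ± 0.16 for the cytokine gene Il5 (adjusted p = 0.0144). It was -1.24 ± 0.15 for Klrd1 (adjusted p = 0.000723) and -0.84 ± 0.12 for Cd3g, a chain of the T cell receptor complex (adjusted p = 0.00193). The genotype difference of Klrd1 in resting CD8 minus that in resting CD4 cells was -1.54 ± 0.17 (limma adjusted p = 0.000775), and its mean in CD8 cells was 11.6 in deficient and 11.7 in wild-type cells.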

How the results depend on the processing

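The labels give no shared replicate numbers, but each resting CD4 title number is followed by that of a stimulated array. Pairs so formed deviated together only weakly (r from 0.03 to 0.08 over genes), though each resting array correlated best with its own partner, a hint from the data. With this replicate block, chosen after seeing the data, 126 genes were called for the difference of responses, 6045 for deficient and 5445 for wild-type stimulation, and 2 of the 5 genes for wild-type stimulation. Named list calls lost under it were those of Mitf, Tpsab1 and Cpa3 (limma adjusted p between 0.052 and 0.069) on stimulation, and that of Il5 for the difference of responses (0.0525). Between 1 and 2 of the 5 genes were called in wild-type stimulation, and 1 or 2 in wild-type lineage, when each array was left out. The Adipoq change on wild-type stimulation ran from -0.14 to 0.013 with each array left out, turning positive (0.013, limma adjusted p = 0.972) without replicate 2 of the resting wild-type CD4 arrays. With probe sets averaged, Trpm1 differences were 1.40 in resting CD4, 2.35 in CD8 and -1.59 on stimulation of deficient cells. Genes called with each array left out numbered 589 to 704 in resting CD4 (997 as reported), 1062 to 1715 in stimulated CD4 (1616), 305 to 921 in CD8 (995), 5452 to 6070 for deficient stimulation (6041), 4853 to 4938 for wild-type stimulation (5451), 103 to 287 for the difference of responses (206) and 416 to 620 for wild-type lineage (862). Array weights gave 1937 in resting CD4, 351 for the difference of responses and 1391 for lineage. Without the 2 arrays with the largest Gapdh difference, an alternative chosen after seeing the data, these were 1723, 325 and 1324. All probe sets gave 2564 in stimulated CD4, 13683 and 12112 for deficient and wild-type stimulation and 1345 for lineage. A fit of the compared groups alone gave 823 in stimulated CD4 and 269 in CD8. The causes were not tested, except that testing all probe sets tests more features. Groups of 2 or 3 arrays and signals near the table median limit what small changes can be seen.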
